A study of Mus musculus with 12 samples.

Results

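The Slc25 genes encode the mitochondrial carriers, the family of inner-membrane proteins that exchange nucleotides, amino acids, carboxylates, phosphate and cofactors between the cytosol and the mitochondrial matrix. The members described here are the rows of the deposited expression table whose symbol is Slc25a followed by a number and whose mean over all 12 libraries was at least 0.5 RPKM, a read count scaled to the length of the gene and the size of the library. There were 37 such genes among 47 rows with an Slc25a symbol, out of 22456 genes in the table and 11507 genes that passed the same minimum. The members were therefore selected on their mean level, and that level is given only as a description. Liver RNA was sequenced from 4 groups of 3 BALB/cByJ mice, which were Lpin1+/+ or Lpin1-/- and either fasted or refed. The labels call the genotypes WT and FLD. FLD mice carry the fatty liver dystrophy mutation, a germline loss of lipin 1 in every tissue, so that its lack in liver and its lack in adipose tissue, muscle and nerve cannot be told apart. Mice were 2 to 8 months old and housed singly for an overnight fast of 16 hours. Fasted livers were collected then, and refed livers after a further 5 hours with food, so that feeding state and time of day cannot be told apart.

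Each carrier is named by its substrate where one is known. The phosphate carrier and the adenine nucleotide translocases supply the ATP synthase with phosphate and ADP and export ATP. The aspartate/glutamate carriers work in the malate-aspartate shuttle, the ornithine carrier links mitochondrial and cytosolic steps of the urea cycle, the citrate carrier exports carbon for fatty acid synthesis, and the carnitine/acylcarnitine carrier admits fatty acids for oxidation. Lipin 1 is a phosphatidic acid phosphatase of triglyceride synthesis that also acts in the nucleus as a coactivator of oxidative genes.

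Lpin1 itself was measured first, as a check of the genotype labels. Its RPKM was between 0.00573 and 0.0597 in the 6 Lpin1-/- libraries and between 0.726 and 22.0 in the 6 Lpin1+/+ libraries, with the highest value in fasted Lpin1+/+ mouse 1. The hepatocyte markers Alb, Apoa1, Ttr, Serpina1a and Fgb summed to between 33900 and 74700 RPKM in each library. Markers of other liver cells varied between mice within groups. The 5 Kupffer cell markers summed to 760 in fasted Lpin1-/- mouse 1 and 643 in refed Lpin1+/+ mouse 2, and to between 80.5 and 378 in the other 10 libraries. Clec4f, 1 of these 5, did not follow the sum in refed Lpin1+/+ mouse 2, at 32.4 RPKM against 37.7 and 22.6 in mouse 1 and mouse 3. Fasted Lpin1-/- mouse 1 also had the highest sums of the 4 cholangiocyte markers (21.1, against 1.39 to 6.94 elsewhere) and the 5 erythroid markers (1940, against 235 to 903). Its sum of the 4 neutrophil markers was the highest too, at 175 against 4.41 to 126. The 4 stellate cell markers summed to 271, 185 and 245 in fasted Lpin1-/- mice, above the 149, 63.3 and 148 of fasted Lpin1+/+ mice, and to between 64.9 and 194 in the refed libraries. Dcn made up most of the fasted sums, at 264.3, 179.4 and 240.2 RPKM in Lpin1-/- and 140.5, 61.81 and 144.3 in Lpin1+/+ mice. The other 3 markers did not agree. In fasted Lpin1-/- against fasted Lpin1+/+ liver, mean Col1a1 was higher (2.238 and 0.5969), while Lrat (1.284 and 1.827) and Reln (2.117 and 2.309) were lower. The Kupffer cell marker Clec4f was lower on refeeding in Lpin1-/- liver (-1.28 on the log2(RPKM + 1) scale, adjusted p = 0.0235 with limma), and past the threshold in 15 of 18 alternatives. The part of these cells in the members' changes was not tested. The 4 muscle markers summed to at most 0.435 in any library. In bulk liver, fewer cells of a type and less RNA per cell cannot be told apart.

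By mean level the members spanned 3 orders of magnitude on the length-corrected RPKM scale. Slc25a47, a carrier found mainly in liver, had the highest mean at 1124 RPKM, followed by Slc25a5 (adenine nucleotide translocase 2) at 433, Slc25a39 (a glutathione carrier) at 367, and Slc25a3 (the phosphate carrier) at 316. The lowest was Slc25a35 at 0.761, the only member whose mean in a group, fasted Lpin1-/-, was under the minimum. Just outside the minimum was Slc25a36, a pyrimidine nucleotide carrier, with a mean of 0.466 and a range of 0.135 to 0.992 RPKM. The members' summed RPKM was 2781 to 3085 in fasted Lpin1+/+, 2150 to 2680 in refed Lpin1+/+, 4883 to 6214 in fasted Lpin1-/-, and 3561 to 3631 in refed Lpin1-/-. Slc25a47 made up much of that difference: its share of the sum was 21.7% to 33.8% in fasted Lpin1+/+, 44.7% to 52.3% in fasted Lpin1-/-, 8.06% to 17.1% in refed Lpin1+/+, and 11.5% to 20.8% in refed Lpin1-/-.

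**Figure D1:**
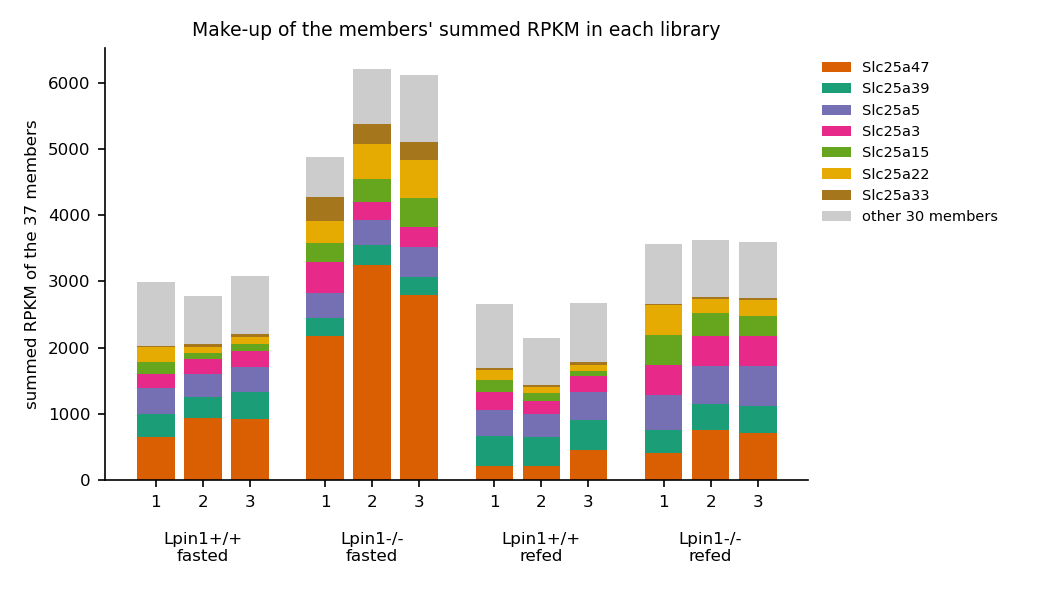
Summed RPKM of the 37 members in each of the 12 libraries (bars from 0, 3 mice in each group), split into the 7 named carriers and the other 30 members. The 3 fasted Lpin1-/- bars reach 4883 to 6214 and are the tallest, with Slc25a47 as their largest segment.

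Differences were tested on log2(RPKM + 1) with a single limma fit of the 4 groups over all 11507 genes, and a Benjamini-Hochberg adjusted p under 0.05 was counted as a change. All log2 fold changes are on this scale, which understates the change of genes with low RPKM, and all adjusted p-values of gene levels are from this fit. Of the 37 members, 22 changed in at least 1 of the 5 contrasts. Lack of lipin 1 in the fasted state altered the most: 8 members rose and 7 fell, 15 in all, where 18.8% of all genes tested were called (5.63% higher and 13.2% lower). In the refed state 5 members were higher and 2 lower in Lpin1-/- liver, against 6.67% of all genes (2.6% higher and 4.07% lower). Refeeding raised 7 members and lowered 3 in Lpin1-/- liver, where 20.7% of all genes were called (17.8% higher and 2.92% lower). In Lpin1+/+ liver refeeding lowered 1 member, Slc25a47, where 1.72% of all genes were called. The feeding response itself differed between genotypes for 1 member, Slc25a33, with 1.28% of all genes called. The median log2 fold change of the members and of all genes was -0.09 and -0.14 for genotype in fasted liver, 0.09 and -0.07 for genotype in refed liver, 0.30 and 0.25 for refeeding in Lpin1-/- liver, and 0.05 and 0.18 for refeeding in Lpin1+/+ liver. The sign of the members' median was not stable in 2 of these. For genotype in fasted liver it was 0.10 without fasted Lpin1-/- mouse 1 and 0.02 with libraries rescaled by their median ratio. For refeeding in Lpin1+/+ liver it was -0.18 after rescaling, -0.01 without fasted mouse 2 and -0.05 without refed mouse 1.

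The counts depend on single mice. Without fasted Lpin1+/+ mouse 3, 9 members changed with genotype in fasted liver: Slc25a15, Slc25a20, Slc25a21, Slc25a23, Slc25a29, Slc25a33, Slc25a45, Slc25a47 and Slc25a51. These 9 passed in every other alternative that tested them. Without fasted Lpin1-/- mouse 1, 13 members changed with genotype in fasted liver. With libraries rescaled Slc25a10 and Slc25a38 no longer passed and Slc25a4 and Slc25a25 did. The refed genotype count fell from 7 to 3 without refed Lpin1+/+ mouse 2 or mouse 3, and to 4 without fasted Lpin1+/+ mouse 3. This count fell to 2 without refed Lpin1+/+ mouse 1, to 1 without refed Lpin1-/- mouse 2, and to 0 without refed Lpin1-/- mouse 1 or mouse 3. Its calls of Slc25a12 and Slc25a15 held in 14 of 18 alternatives each, and were lost without refed Lpin1+/+ mouse 3 or any 1 of the refed Lpin1-/- mice. The refeeding count in Lpin1-/- liver fell from 10 to 4 without refed Lpin1-/- mouse 2 (Slc25a11, Slc25a33, Slc25a45 and Slc25a47), to 6 without mouse 3 of that group, and to 6 (3 higher, 3 lower) when libraries were rescaled to a common median ratio, which moved the median change of all genes from 0.25 to 0.06.

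**Figure D2:**
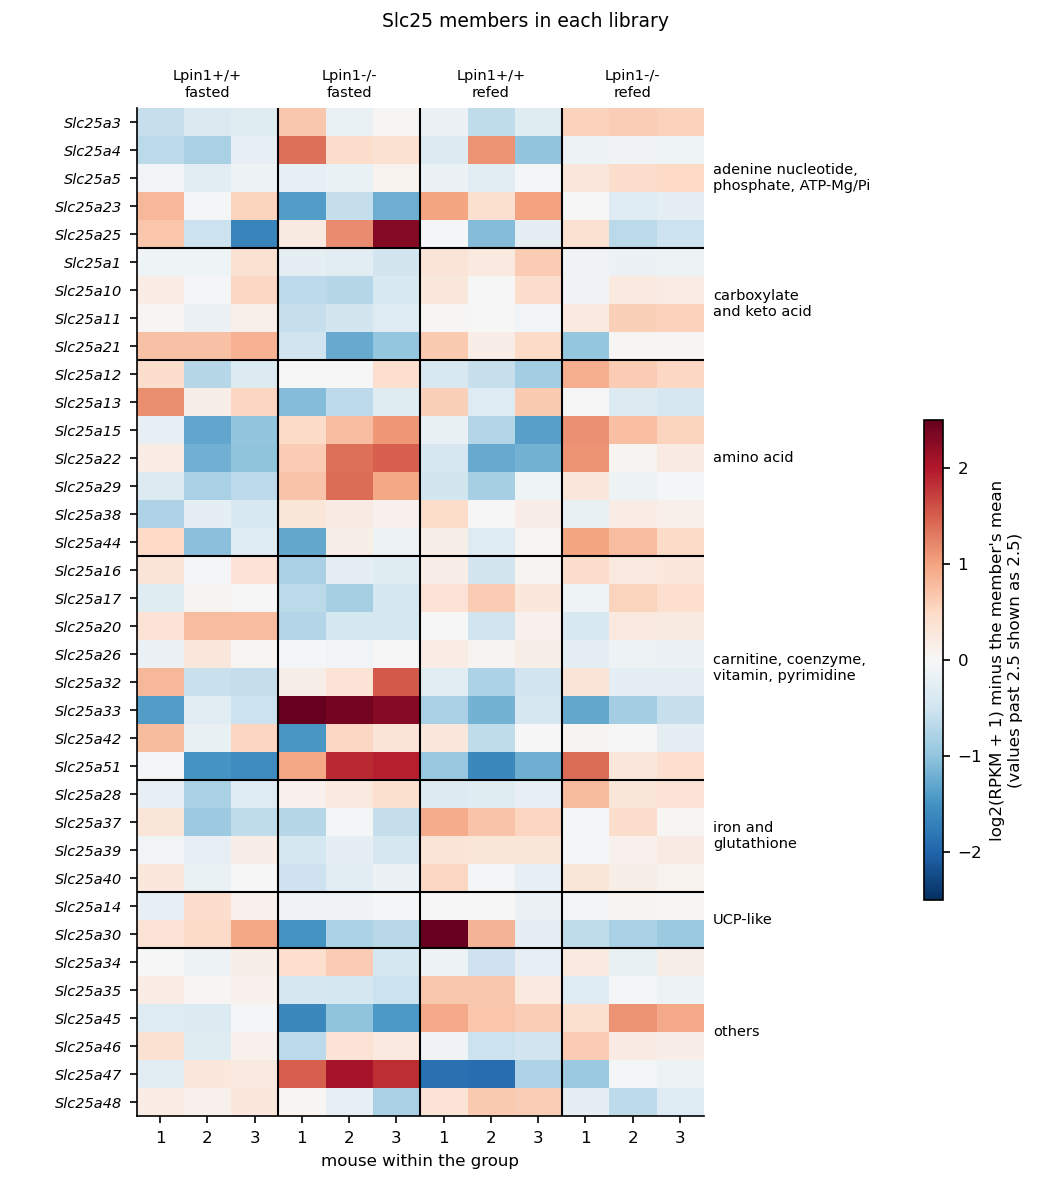
Log2(RPKM + 1) of 36 members minus the mean of each over the 12 libraries, with libraries in columns by group and members in rows by substrate. Slc25a33 and Slc25a47 are high in the 3 fasted Lpin1-/- libraries, and Slc25a15, Slc25a22 and Slc25a51 are high in both Lpin1-/- groups.

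In 3 members, Slc25a33, Slc25a47 and Slc25a29, the 3 fasted Lpin1-/- libraries were the highest of all 12, a pattern held by 3.14% of all genes tested. Slc25a33 (ENSMUSG00000028982, GRCm38 chromosome 4, 149744036 to 149774277, minus strand) encodes a pyrimidine nucleotide carrier that serves mitochondrial DNA and RNA synthesis. Its RPKM was 366, 297 and 275 in fasted Lpin1-/- liver. It was 20.6, 45.8 and 38.6 in fasted Lpin1+/+, 31.7, 24.2 and 41.5 in refed Lpin1+/+, and 22.6, 30.8 and 37.3 in refed Lpin1-/- liver. The fasted Lpin1-/- libraries stood apart from the other 9, whose groups overlapped one another. The log2 fold change with genotype was 3.19 (SE 0.30, adjusted p = 0.000183) in fasted liver, and refeeding of Lpin1-/- mice lowered it by a log2 fold change of -3.35 (SE 0.30, adjusted p = 0.000264). The difference between the 2 feeding responses was -3.28 (SE 0.43, 95% confidence interval -4.27 to -2.29, adjusted p = 0.00758).

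Slc25a47 (ENSMUSG00000048856, chromosome 12, 108836046 to 108856815, plus strand) had 647, 941 and 922 RPKM in fasted Lpin1+/+ liver and 2182, 3248 and 2788 in fasted Lpin1-/- liver. After refeeding it had 214, 208 and 459 RPKM in Lpin1+/+ and 409, 755 and 710 in Lpin1-/- liver. Fasted libraries were above refed libraries of the same genotype in both genotypes, while the refed groups overlapped. Refeeding lowered it by -1.59 (SE 0.35, adjusted p = 0.0478) in Lpin1+/+ and by -2.16 (SE 0.35, adjusted p = 0.00246) in Lpin1-/- liver on the log2 scale. The call in Lpin1+/+ liver was the weakest of these, past the threshold in 6 of 18 alternatives, and the difference between the 2 responses did not pass (-0.57, SE 0.50, adjusted p = 0.549). The genotype difference was 1.71 (SE 0.35, adjusted p = 0.00746) in fasted liver and 1.14 (SE 0.35, adjusted p = 0.0793) in refed liver.

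Slc25a29 (ENSMUSG00000021265, chromosome 12, 108825873 to 108835883, minus strand), a carrier of basic amino acids, lies head to head with Slc25a47, with 162 bases between the 2 genes in GENCODE M21. That distance is to the start of a noncoding transcript of Slc25a47, and its coding transcripts start further into the gene. Its RPKM was far lower, at 1.96, 1.16 and 1.38 in fasted Lpin1+/+ and 5.15, 8.92 and 6.38 in fasted Lpin1-/- liver. In refed liver it was 1.76, 1.11 and 2.52 in Lpin1+/+ and 3.57, 2.44 and 2.69 in Lpin1-/- mice. The neighbours thus shared the same highest group at very different levels. Slc25a29 was higher with genotype in fasted liver (1.63, SE 0.25, adjusted p = 0.00158) and fell on refeeding in Lpin1-/- liver (-0.98, SE 0.25, adjusted p = 0.0173).

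The 250 bases before the RefSeq start of these 3 genes (GRCm38.p6) are shown because the genes shared a pattern over the libraries, with matches to 3 motifs in capitals: the E-box CACGTG, the cAMP response element half-site TGACG and the CCAAT box CCAAT, each on both strands. The windows are chr4:149774268-149774517 (minus strand) for Slc25a33, chr12:108850879-108851128 (plus strand) for Slc25a47, and chr12:108835877-108836126 (minus strand) for Slc25a29.
Slc25a33: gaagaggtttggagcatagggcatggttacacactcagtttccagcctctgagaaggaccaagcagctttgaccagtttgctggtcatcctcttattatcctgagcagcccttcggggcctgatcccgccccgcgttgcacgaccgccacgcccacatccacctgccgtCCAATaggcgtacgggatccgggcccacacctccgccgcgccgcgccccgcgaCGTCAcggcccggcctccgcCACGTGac
Slc25a47: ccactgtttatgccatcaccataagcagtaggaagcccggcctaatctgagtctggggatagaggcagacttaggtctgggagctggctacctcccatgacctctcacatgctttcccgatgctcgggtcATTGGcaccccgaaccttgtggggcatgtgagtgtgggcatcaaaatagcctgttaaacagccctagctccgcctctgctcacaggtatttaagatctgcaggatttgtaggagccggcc
Slc25a29: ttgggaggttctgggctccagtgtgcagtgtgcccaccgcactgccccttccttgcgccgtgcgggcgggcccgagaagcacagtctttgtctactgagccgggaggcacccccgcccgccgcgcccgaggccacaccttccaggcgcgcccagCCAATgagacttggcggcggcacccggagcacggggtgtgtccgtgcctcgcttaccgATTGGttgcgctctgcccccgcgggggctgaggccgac
All 3 windows held a CCAAT box, which 33.8% of the 32851 windows of the table hold. The Slc25a33 window also held a CACGTG E-box (6.02% of all windows), ending 3 bases before the start, and a TGACG half-site on the strand opposite to the one printed (17.8% of all windows). The window of Slc25a47 had a GC content of 54.4%, against 64.4% for Slc25a33 and 71.2% for Slc25a29. Windows were at hand for 29 of the 37 members, and CACGTG was in those of 5: Slc25a1, Slc25a13, Slc25a14, Slc25a15 and Slc25a33. These matches are a description of the letters in the windows.

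**Figure D3:**
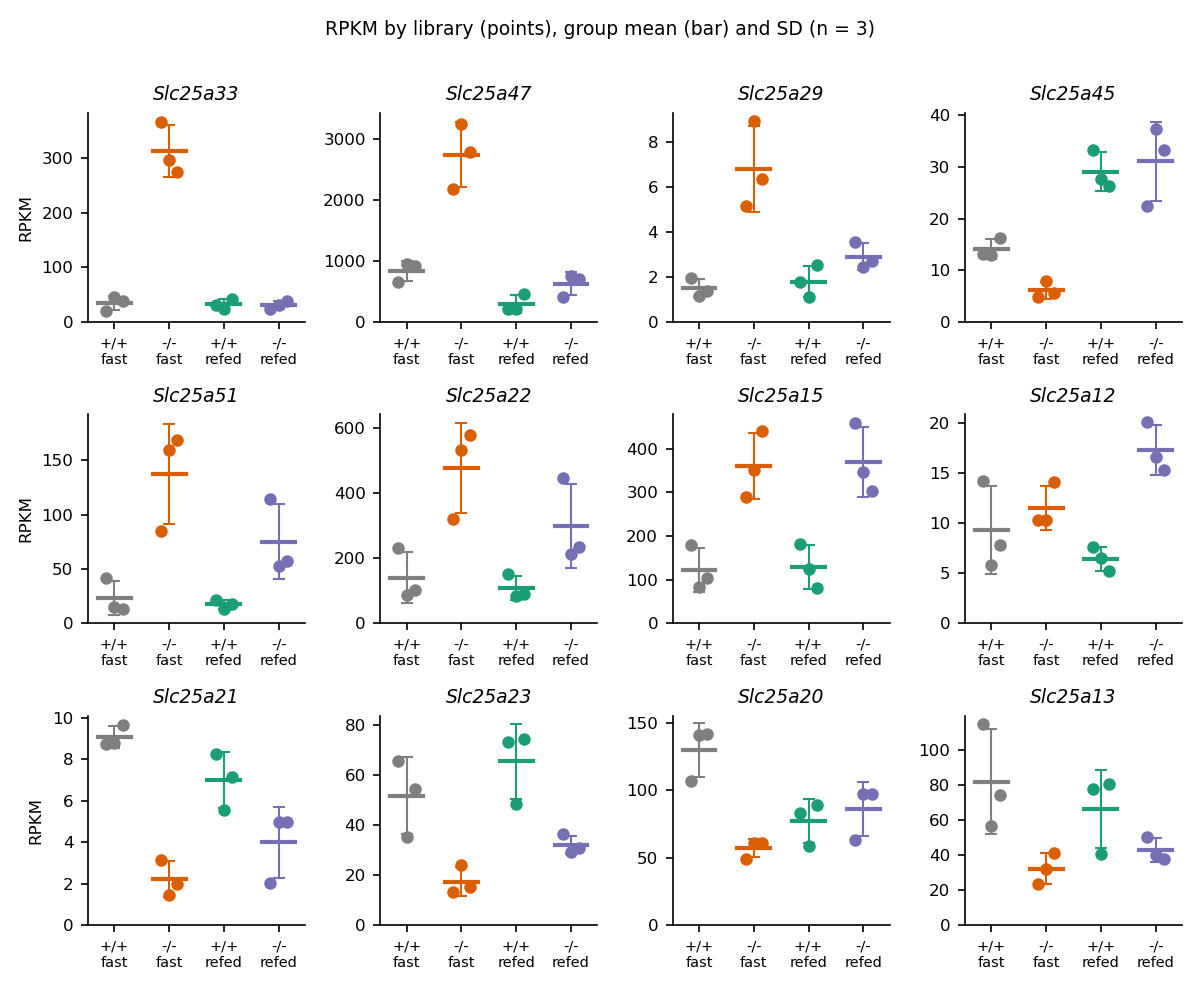
RPKM of the 12 members with the largest changes in each library (points), with the group mean (bar) and SD (n = 3), for Lpin1+/+ and Lpin1-/- mice in the fasted and refed states. Slc25a33 is high in 1 group, fasted Lpin1-/-, while Slc25a15 and Slc25a51 are above both Lpin1+/+ groups in both Lpin1-/- groups.

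In 3 members, Slc25a51, Slc25a15 and Slc25a28, all 6 Lpin1-/- libraries lay above all 6 Lpin1+/+ libraries, as in 2.55% of all genes tested. Slc25a51 (ENSMUSG00000045973, chromosome 4, 45395923 to 45408766, minus strand), the mitochondrial NAD carrier, had 84.8, 160 and 168 RPKM in fasted and 115, 52.5 and 57.6 in refed Lpin1-/- liver. In Lpin1+/+ liver it had 41.7, 14.9 and 13.7 RPKM fasted and 21.8, 13.4 and 17.9 refed. Its genotype difference was 2.62 (SE 0.44, adjusted p = 0.00254) in fasted and 1.96 (SE 0.44, adjusted p = 0.0243) in refed liver. The fasted call held in all 18 alternatives and the refed call in 12 of 18. The refed call was lost without any 1 of the refed Lpin1+/+ mice, without refed Lpin1-/- mouse 1 or mouse 3, and without the filter on low values. Fasted Lpin1+/+ mouse 1 and refed Lpin1-/- mouse 1 were the highest of their groups, well above the other mice.

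Slc25a15 (ENSMUSG00000031482, chromosome 8, 22375551 to 22398597, minus strand), the ornithine carrier, had 179, 83.8 and 104 RPKM in fasted Lpin1+/+ and 289, 352 and 441 in fasted Lpin1-/- liver. Refed values were 181, 124 and 80.2 in Lpin1+/+ and 459, 348 and 303 in Lpin1-/- liver. Feeding left these levels overlapping within each genotype, while the genotypes did not overlap. Slc25a15 rose with genotype by 1.61 (SE 0.34, adjusted p = 0.00872) in fasted and 1.57 (SE 0.34, adjusted p = 0.0212) in refed liver.

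Slc25a22 (ENSMUSG00000019082, chromosome 7, 141429744 to 141437892, minus strand), a glutamate carrier, had 232, 88.1 and 102 RPKM in fasted Lpin1+/+, 319, 532 and 578 in fasted Lpin1-/-, 152, 84.4 and 89.0 in refed Lpin1+/+, and 447, 213 and 235 in refed Lpin1-/- liver. Fasted Lpin1+/+ mouse 1 and refed Lpin1-/- mouse 1 were again the highest of their groups, as for Slc25a51, and fasted Lpin1+/+ mouse 1 overlapped the refed Lpin1-/- values of Slc25a22. It rose with genotype in fasted liver (1.85, SE 0.42, adjusted p = 0.0114). In refed liver its difference of 1.42 (SE 0.42) had an adjusted p of 0.0663. This difference passed in 2 of 18 alternatives, with libraries rescaled (adjusted p = 0.0344) and without fasted Lpin1+/+ mouse 1 (adjusted p = 0.0298). That mouse is not in the refed comparison, and the difference stayed at 1.42 without it. The adjusted p reached 0.226 in another alternative. Slc25a28, mitoferrin 2, which imports iron, had 9.03 to 14.4 RPKM over both Lpin1+/+ groups and 17.96 to 29.5 over both Lpin1-/- groups, and rose with genotype in fasted (0.70) and refed liver (0.77). The fasted call of Slc25a28 held in 13 of 18 alternatives. Its refed call held in 7 of 18, and was lost without any 1 of the 6 refed libraries.

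**Figure D4:**
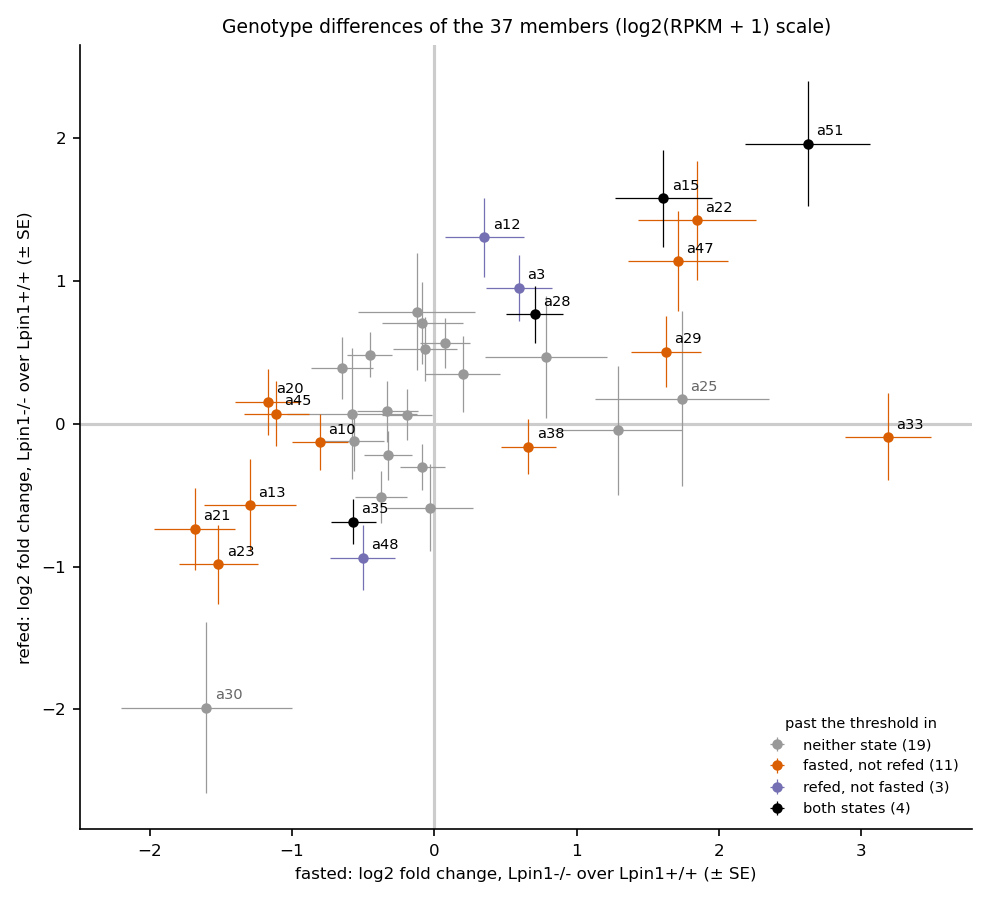
Log2 fold change of each of the 37 members, Lpin1-/- over Lpin1+/+, in fasted (horizontal) and refed liver (vertical), with SE, coloured by the states in which it passed the threshold. Slc25a33 lies far right at 3.19 and near 0 on the vertical axis, and Slc25a51 and Slc25a15 are high on both axes.

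The remaining amino acid carriers moved in different directions. The liver holds both forms of the aspartate/glutamate carrier. Slc25a13 (citrin; ENSMUSG00000015112, chromosome 6, 6041218 to 6217173, minus strand) is its main form there, and it had 115, 56.4 and 74.0 RPKM in fasted Lpin1+/+ and 23.5, 31.8 and 41.1 in fasted Lpin1-/- liver. In refed liver it had 77.7, 40.6 and 80.7 RPKM in Lpin1+/+ and 50.5, 39.9 and 37.8 in Lpin1-/- mice. The fasted groups did not overlap and the refed groups did. Slc25a13 fell with genotype in fasted liver (-1.29, SE 0.32, adjusted p = 0.0175).

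Slc25a12 (aralar; ENSMUSG00000027010, chromosome 2, 71271063 to 71367749, minus strand), the other form, had 7.59, 6.53 and 5.19 RPKM in refed Lpin1+/+ and 20.1, 16.6 and 15.2 in refed Lpin1-/- liver, which were the 3 highest of all 12 values. Fasted values overlapped, at 14.2, 5.84 and 7.85 in Lpin1+/+ and 10.3, 10.3 and 14.1 in Lpin1-/- liver. It was higher with genotype in refed liver (1.30, SE 0.28, adjusted p = 0.0197). The mean of Slc25a12 stayed below that of Slc25a13 in every group. Slc25a38, a glycine carrier needed for heme synthesis, had 12.3 to 18.2 RPKM in fasted Lpin1+/+ and 23.3 to 26.6 in fasted Lpin1-/- liver (0.66, adjusted p = 0.0346, past the threshold in 9 of 18 alternatives). Its level in fasted Lpin1-/- liver was within the range of refed Lpin1+/+ liver, 21.3 to 29.9. Slc25a44, a branched-chain amino acid carrier, had 7.68 to 40.7 RPKM over the 12 libraries and passed in no contrast.

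Of the 4 carboxylate and keto acid carriers, 2 were lower in fasted Lpin1-/- liver. Slc25a21 (ENSMUSG00000035472, chromosome 12, 56712634 to 57197472, minus strand), the oxodicarboxylate carrier of lysine and tryptophan breakdown, had 8.73, 8.78 and 9.66 RPKM in fasted Lpin1+/+ and 3.15, 1.45 and 1.999 in fasted Lpin1-/- liver. Refed values were 8.23, 5.56 and 7.15 in Lpin1+/+ and 2.02, 4.97 and 4.95 in Lpin1-/- liver. All 6 Lpin1-/- libraries lay below all 6 Lpin1+/+ libraries, a pattern that Slc25a30, Slc25a35 and Slc25a48 also showed and that 4.08% of all genes tested held. Slc25a35 met the minimum level through its Lpin1+/+ libraries, so its place in this pattern is no support for a lower level. The fall of Slc25a21 in fasted liver was -1.69 (SE 0.29, adjusted p = 0.0028).

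Slc25a10, the dicarboxylate carrier, had 86.8 to 127 RPKM in fasted Lpin1+/+ and 53.6 to 67.8 in fasted Lpin1-/- liver (-0.80, adjusted p = 0.0156), and rose to 83.1 to 105 RPKM on refeeding of Lpin1-/- mice (0.70, adjusted p = 0.0277, but adjusted p = 0.228 without refed Lpin1-/- mouse 2). Slc25a11, the 2-oxoglutarate/malate carrier of the malate-aspartate shuttle, rose on refeeding in Lpin1-/- liver from 41.95 to 49.97 RPKM to 74.2 to 94.7 (0.92, SE 0.16, adjusted p = 0.0032), a call that held in all 18 alternatives. In Lpin1+/+ liver it was 56.2 to 68.7 RPKM fasted and 59.8 to 63.8 refed, and the difference between the responses, 0.94, had an adjusted p of 0.0666. Slc25a1, the citrate carrier, had 72.7 to 156 RPKM over the 12 libraries and passed in no contrast. These 3, with Slc25a17, Slc25a23, Slc25a35, Slc25a39 and Slc25a45, made up the 8 members whose 3 fasted Lpin1-/- libraries were the lowest of all 12, a pattern held by 14.8% of all genes tested. The limit of the minimum level holds for Slc25a35 here too.

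Among the carriers of carnitine and cofactors, Slc25a20 (ENSMUSG00000032602, chromosome 9, 108662088 to 108684641, plus strand), the carnitine/acylcarnitine carrier, had 107, 142 and 142 RPKM in fasted Lpin1+/+ and 49.4, 61.1 and 60.6 in fasted Lpin1-/- liver. After refeeding it had 83.3, 58.5 and 89.2 RPKM in Lpin1+/+ and 63.0, 97.7 and 97.3 in Lpin1-/- liver. The fasted Lpin1+/+ libraries were the highest, and the refed groups overlapped. Slc25a20 fell with genotype in fasted liver (-1.17, SE 0.23, adjusted p = 0.00593). It went down with refeeding in Lpin1+/+ (-0.76, SE 0.23, adjusted p = 0.148) and up in Lpin1-/- liver (0.56, SE 0.23, adjusted p = 0.103), and neither value passed, nor did their difference of 1.32 (SE 0.33, adjusted p = 0.0699). Without refed Lpin1-/- mouse 1 the refeeding response in Lpin1-/- liver (0.77, adjusted p = 0.0468) and the difference (1.53, adjusted p = 0.0479) did pass.

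Refeeding of Lpin1-/- mice raised Slc25a17, a carrier of coenzyme A and other cofactors in the peroxisomal membrane, from 16.7 to 22.3 RPKM to 28.3 to 45.4 (0.94, adjusted p = 0.0102). It raised Slc25a16, linked to coenzyme A uptake, from 15.3 to 23.6 RPKM to 32.8 to 37.6 (0.75, adjusted p = 0.0321). The calls of Slc25a16 and Slc25a17, and those of Slc25a10 and Slc25a23 in the same contrast, were lost when libraries were rescaled. The others passed in no contrast: Slc25a26, the S-adenosylmethionine carrier, at 4.42 to 6.77 RPKM, Slc25a32, the folate carrier, at 3.25 to 20.4, and Slc25a42, a coenzyme A carrier, at 7.26 to 37.9. The lowest value of Slc25a42 was in fasted Lpin1-/- mouse 1, which had high sums of several lists of cell markers. The part of those cells in that value was not tested.

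Of the adenine nucleotide and phosphate carriers, Slc25a3 was higher with genotype in refed liver, at 191 to 271 RPKM in Lpin1+/+ and 447 to 456 in Lpin1-/- mice (0.95, SE 0.23, adjusted p = 0.034), a call lost without any 1 of the 6 refed libraries and when libraries were rescaled. Slc25a23 (ENSMUSG00000046329, chromosome 17, 57043711 to 57059863, minus strand), a calcium-regulated ATP-Mg/Pi carrier, had 65.4, 35.2 and 54.2 RPKM in fasted Lpin1+/+ and 13.2, 23.8 and 15.1 in fasted Lpin1-/- liver. In refed liver it had 73.2, 48.2 and 74.4 RPKM in Lpin1+/+ and 36.2, 29.0 and 30.8 in Lpin1-/- mice. The genotypes did not overlap in either state. Slc25a23 fell with genotype in fasted liver (-1.52, SE 0.28, adjusted p = 0.00408), was -0.99 (SE 0.28, adjusted p = 0.0583) in refed liver, and rose on refeeding in Lpin1-/- liver (0.88, SE 0.28, adjusted p = 0.0434, past the threshold in 7 of 18 alternatives).

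Its relative Slc25a25 was the most variable between mice, with 93.4, 39.5 and 17.6 RPKM in fasted Lpin1+/+ and 68.0, 132 and 288 in fasted Lpin1-/- liver, and passed in no contrast (1.74, SE 0.61, adjusted p = 0.0693 for genotype in fasted liver, but 2.33 with an adjusted p of 0.0233 without fasted Lpin1+/+ mouse 1 and 2.24 with 0.0416 without fasted Lpin1-/- mouse 1). Slc25a5 had 348 to 603 RPKM and passed in no contrast, although all 3 refed Lpin1-/- libraries, at 522 to 603, lay above the other 9. It has an annotated pseudogene, Slc25a5-ps on chromosome 14, which could share its reads. Slc25a4, the adenine nucleotide translocase of muscle and heart, had 3.93 to 24.2 RPKM and passed in no contrast. Its 2 highest values, 24.2 and 20.2, were in fasted Lpin1-/- mouse 1 and refed Lpin1+/+ mouse 2, the libraries with the highest Kupffer marker sums (760 and 643). The same 2 libraries had the highest sums of the cholangiocyte markers (21.1 and 6.94) and of the muscle markers (0.435 and 0.295). The part of any of these cells in the level of Slc25a4 was not tested.

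Slc25a39, Slc25a37 and Slc25a40, the other iron and glutathione carriers, passed in no contrast. Slc25a39 had 265 to 453 RPKM, Slc25a37, mitoferrin 1, had 1.79 to 8.92, and Slc25a40, a relative of Slc25a39, had 1.11 to 3.31. Slc25a37 had the largest positive log2 fold change of the members on refeeding of Lpin1+/+ mice, from 5.44, 1.79 and 2.40 RPKM to 8.92, 7.66 and 6.64 (1.14, SE 0.31, adjusted p = 0.0995). The groups did not overlap, and the difference passed in 1 of 17 alternatives, without fasted Lpin1+/+ mouse 1 (adjusted p = 0.0224). The erythroid marker sum was highest in fasted Lpin1-/- mouse 1, where Slc25a37, the mitoferrin of red cell precursors, was at 2.20 RPKM, in the lower part of its range. Of that sum of 1940, Hbb-bs made up 1500, while Alas2 was at 108, within its range of 52.2 to 129 over all libraries. The part of red cells or their precursors in the level of Slc25a37 was not tested. Of the carriers related to the uncoupling proteins, Slc25a14 had 1.75 to 3.26 RPKM. Slc25a30 had 7.17 to 73.0 in Lpin1+/+ and 2.36 to 5.16 in Lpin1-/- liver. Its genotypes did not overlap, but neither difference passed (-1.60, adjusted p = 0.0859 fasted, and -1.99, adjusted p = 0.0739 refed), with 73.0 RPKM in refed Lpin1+/+ mouse 1 far above the next value of 17.7. Without that mouse the fasted difference passed (adjusted p = 0.00839), while the refed difference was -1.11 (adjusted p = 0.12).

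Slc25a45 (ENSMUSG00000024818, chromosome 19, 5877808 to 5885878, plus strand) had the largest positive log2 fold change of the members on refeeding of Lpin1-/- mice. There it went from 4.80, 7.87 and 5.54 RPKM to 22.4, 37.4 and 33.3 (2.17, SE 0.23, adjusted p = 0.000417). In Lpin1+/+ liver it went from 13.1, 12.9 and 16.3 to 33.3, 27.7 and 26.2 RPKM (0.99, SE 0.23, adjusted p = 0.0548). Refed libraries were above fasted libraries in both genotypes, and the refed genotypes overlapped. Slc25a45 was lower with genotype in fasted liver (-1.11, SE 0.23, adjusted p = 0.00725), and the difference between its responses, 1.18, had an adjusted p of 0.0971.

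Slc25a48 was lower with genotype in refed liver, at 8.28 to 10.5 RPKM in Lpin1+/+ and 3.67 to 5.23 in Lpin1-/- mice (-0.94, adjusted p = 0.034). That call held in 7 of 18 alternatives, and was lost without any 1 of the 6 refed libraries and when libraries were rescaled. Slc25a35 had means of 0.827 and 1.46 RPKM in fasted and refed Lpin1+/+ liver and 0.230 and 0.521 in Lpin1-/- liver, so it met the minimum of 0.5 through its Lpin1+/+ libraries. Its calls with genotype, which are in the counts above, and its places in the patterns above are no support for a lower level. It was at 0.727 to 1.70 RPKM over Lpin1+/+ and 0.175 to 0.649 over Lpin1-/- libraries (-0.57, adjusted p = 0.0288 fasted, and -0.69, adjusted p = 0.0288 refed). Its gene overlaps Rangrf on the opposite strand by 1882 bases, so its low counts are uncertain if reads were counted without strand. Slc25a34 had 2.16 to 6.07 RPKM and Slc25a46, an outer-membrane protein of mitochondrial dynamics, had 11.3 to 29.4. Neither passed in any contrast. Of the 37 members, 7 overlap a protein-coding gene on the opposite strand: Slc25a11, Slc25a21, Slc25a23, Slc25a25, Slc25a26, Slc25a35 and Slc25a46.

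Genes that work beside the carriers were counted from lists for the same contrasts. Over all genes tested, 5.63% rose and 13.2% fell with genotype in the fasted state, 2.6% rose and 4.07% fell with genotype in the refed state, and 17.8% rose on refeeding in Lpin1-/- liver. Of 12 measured genes of carrier import, 1 rose and 2 fell with genotype in fasted liver, and 4 rose on refeeding in Lpin1-/- liver: Timm9, Tomm22, Tomm40 and Tomm70a, which pass newly made carriers across the outer membrane and the space behind it. All 3 porins (Vdac1, Vdac2 and Vdac3), the channels of the outer membrane, rose on refeeding in Lpin1-/- liver. Of 14 other inner-membrane transporters, 5 were lower with genotype in the fasted state and 2 in the refed state, while none rose in either. Of 5 genes of the carnitine shuttle beside Slc25a20, 3 fell in fasted Lpin1-/- liver: Cpt2, Crat and Crot. Of 6 enzymes beside the ornithine carrier, 1 rose and 1 fell in fasted liver, and 3 rose in refed liver: Ass1 (2.14), Asl (2.05) and Arg1 (1.89). Of 6 genes of the malate-aspartate and glycerol phosphate shuttles, 1 rose and 3 fell in fasted liver, and Got1 rose in both states (2.87 and 4.07). Of 3 measured family members under other symbols (Ucp2, Mtch1 and Mtch2), none passed in any contrast.

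Exon usage was a readout that the choice of members did not use. The authors' tables list, for each event in which an exon is included or skipped, the reads of both forms in each library. Each group has a list of 3 values that carries no mouse numbers. The log2 ratio of inclusion to skipping reads, corrected for the lengths of the forms, was tested with limma over all events with at least 10 reads in every library compared, and all adjusted p-values of exons are from these fits. In fasted liver 392 events in 32 members were tested, and 43 events in 19 members changed with genotype, 14 toward inclusion and 29 toward skipping. Of all 69644 events tested, 11.3% were called, and events called toward inclusion were 3.52% of all tested. Events of 1 exon with different boundaries share reads, and the 43 events covered 41 exons by their exact ends. In refed liver 2 of 395 events were called, both at the same boundary of a Slc25a1 exon, toward skipping and with a mean of 1.17 reads of the rarer form, against 0.97% of all events (0.152% toward inclusion). Refeeding changed 11 of 161 events in Lpin1-/- liver, 7 toward inclusion, against 7.8% of all events (5.31% toward inclusion). In Lpin1+/+ liver it changed 0 of the 161 with limma, where 0% of all events were called. Before adjustment, 12 of the 161 had a limma p under 0.05 there, as did 1459 of all 28444 events. Without 1 of the libraries, 15 to 45 events passed for genotype in the fasted state and 0 in the refed state, while 4 to 14 changed on refeeding in Lpin1-/- liver.

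Most called events changed a rare form. The median absolute difference in inclusion of the 43 events was 0.0169, and 7 of them differed by at least 0.1. For each member, 1 event was taken for its reads alone, the one whose rarer form had the most on average, and 7 of these 32 events passed in fasted liver: those of Slc25a25, Slc25a44, Slc25a48, Slc25a32, Slc25a17, Slc25a5 and Slc25a45. In refed liver 0 of 34 events picked in the same way passed. The share for such a pick over all genes was not computed, so these counts are a description only.

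The exon of Slc25a25 at chr2:32420656-32420691 (GRCm38, minus strand) has 36 bases, so that its inclusion keeps the reading frame, and it is wholly coding in 3 of 12 annotated transcripts of the gene. Its sequence, from the GENCODE M21 transcripts, is shown because it was the member exon with the deepest coverage of both forms among those that passed.
Slc25a25 exon: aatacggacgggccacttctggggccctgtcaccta
Inclusion was 2.39%, 2.68% and 3.51% in fasted Lpin1+/+ liver and 13.3%, 13.6% and 16.2% in fasted Lpin1-/- liver. The inclusion reads behind these values were 54, 22 and 11 against 170, 346 and 1004. After refeeding inclusion was 2.83%, 3.02% and 1.61% in Lpin1+/+ and 3.75%, 3.14% and 1.83% in Lpin1-/- liver. The fasted Lpin1-/- libraries stood apart from the other 9, and the log2 ratio rose with genotype by 2.49 (SE 0.63, adjusted p = 0.0232) in fasted liver and fell by 2.52 (SE 0.51, adjusted p = 0.00839) on refeeding of Lpin1-/- mice. The change in fasted liver was between 2.36 and 2.73 in the 9 alternatives, of which 4 passed. Total RPKM of Slc25a25 overlapped between the fasted genotypes, as given above, while inclusion did not.

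A Slc25a48 exon of 84 bases at chr13:56439665-56439748, outside the exons of the gene's single annotated transcript, was included in 0% of reads in all 3 fasted Lpin1+/+ libraries (0 inclusion reads beside 47, 52 and 66 skipping reads). It was included in 32.5%, 11.6% and 19.6% in fasted Lpin1-/- liver, from 28, 12 and 12 inclusion reads. Its adjusted p was 0.000785, and the size of the change rests on the number added to 0 counts. Refeeding of Lpin1-/- mice lowered it to 0.853%, 6.94% and 0.923% (adjusted p = 0.0136). The exon of Slc25a32 at chr15:39097520-39097665 went from 99.4%, 100% and 100% inclusion to 84.2%, 93.8% and 91.8% in fasted Lpin1-/- liver (adjusted p = 0.0077). Its skipping reads were 1, 0 and 0 against 16, 8 and 24. The exon of Slc25a44 at chr3:88415988-88416089 went from 97.2%, 100% and 96.1% to 85.4%, 89.1% and 85.5% (adjusted p = 0.0353, past the threshold in 3 of 9 alternatives). Its skipping reads were 6, 0 and 4 against 8, 17 and 19. The exons of Slc25a17, Slc25a45 and Slc25a5 had a mean of at most 6 reads of the rarer form. Those of Slc25a32, Slc25a48 and Slc25a44 were little deeper, at 8.17, 8.33 and 9 reads.

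Of the other called events in fasted liver, the deepest further exon of 4 members had at least 50 reads of the rarer form on average, and these were picked after their values were seen. A Slc25a38 exon of 220 bases at chr9:120111343-120111562 went from 0.981%, 0.454% and 1.22% to 12.0%, 10.6% and 8.60% inclusion (3.69, SE 0.68, adjusted p = 0.00462), a call that held in all 9 alternatives. In refed liver it was 0.959%, 0.811% and 0.251% in Lpin1+/+ and 4.92%, 5.16% and 6.02% in Lpin1-/- mice (3.17, SE 0.65, adjusted p = 0.0547), so the genotypes did not overlap in either state. Skipping of a coding exon of 67 bases in Slc25a33, at chr4:149752404-149752470, went from 3, 4 and 0 reads to 425, 168 and 126 in fasted Lpin1-/- liver, with inclusion at 98.8% to 100% and 89.3% to 96.1% (adjusted p = 0.0302). Inclusion of a Slc25a47 exon at chr12:108853288-108853392 went from 99.6% to 99.9% down to 95.7% to 98.7% (adjusted p = 0.0254), and that of a Slc25a22 exon at chr7:141431350-141431425 from 98.5% to 100% down to 92.2% to 96.7% (adjusted p = 0.0297). Slc25a33, Slc25a47 and Slc25a22 also rose in RPKM in the same libraries, and the skipping of each was past the threshold in 3 of 9 alternatives. In refed liver the Slc25a47 exon was at 99.1% to 99.5% in Lpin1+/+ and 96.7% to 97.7% in Lpin1-/- mice (adjusted p = 0.152). The Slc25a22 exon was at 99.7% to 99.8% and 96.5% to 99% (adjusted p = 0.157). These genotypes did not overlap either. Those of the Slc25a33 exon met, at 99.7% to 100% and 97.5% to 99.7% (adjusted p = 0.391). Slc25a22 had 3 further called events, toward inclusion, at exons of 80, 82 and 86 bases that end at chr7:141434943. Mean inclusion there, as a fraction, was 0.00954 to 0.0247 in fasted Lpin1+/+ and 0.224 to 0.236 in fasted Lpin1-/- liver (adjusted p = 0.00189 to 0.00698). The rarer form had 53.7 to 60.5 reads on average. A deeper event of the 82-base exon did not pass (0.0145 and 0.0484, adjusted p = 0.107).

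**Figure D5:**
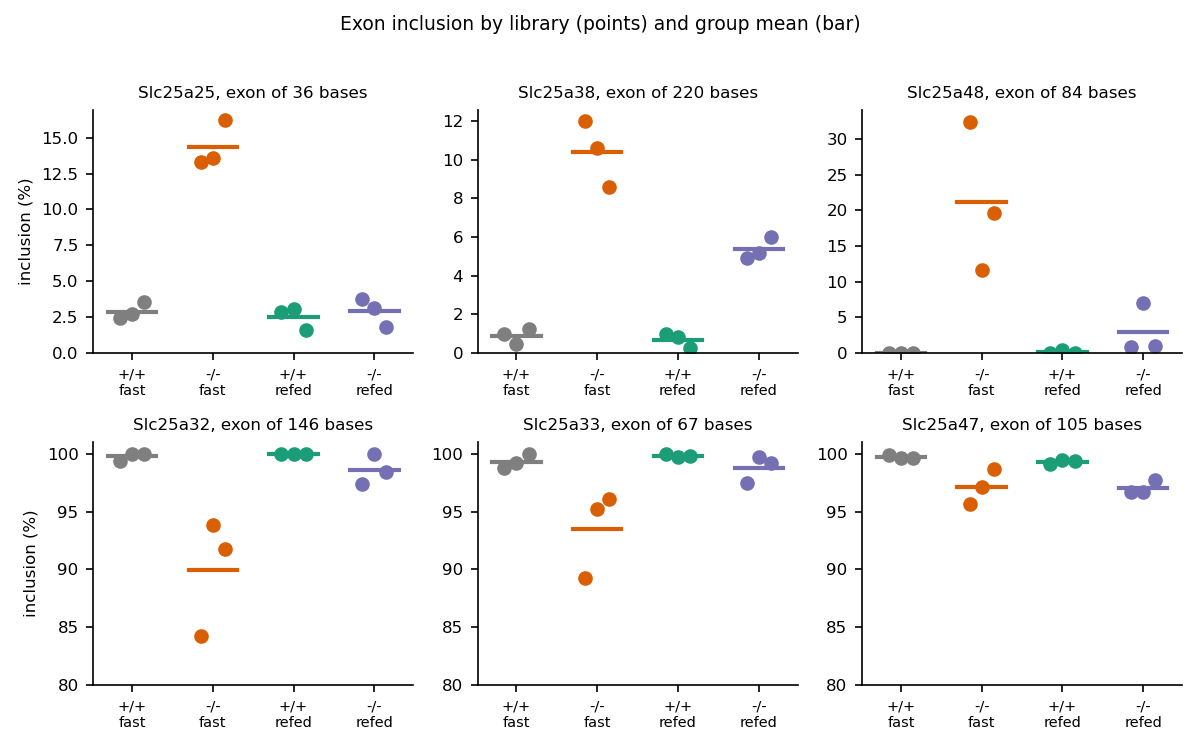
Inclusion, in percent of the reads of both forms corrected for length, of 6 exons in each library (points) with the group mean (bar), for Lpin1+/+ and Lpin1-/- mice in the fasted and refed states; the lower row starts at 80%. The Slc25a25 exon reaches 13.3% to 16.2% in fasted Lpin1-/- liver and at most 3.75% elsewhere, and the Slc25a38 exon is higher in both Lpin1-/- groups.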

How the data were processed

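Liver RNA-Seq libraries of 12 mice were grouped by the authors' labels. The authors prepared them with a stranded kit, aligned reads to GRCm38 (Ensembl annotation) with HISAT2 2.0.5, counted them per gene with htseq-count (HTSeq 0.6.0), and deposited RPKM per gene; whether strand was used in counting is not given in the sources used here. RPKM gives no read totals, and the paper gives only an approximate depth per sample, so the reads behind each gene's level are not known here. The deposited exon tables hold inclusion and skipping counts from rMATS, with 369.5 to 760.5 reads for the median member event in each library. Their p-value and FDR columns, and the tables cut to them, are the authors' own comparisons and were not used, except that the counts of 1 such table (1523 shared fasted and 1719 shared refed events, all with the same Lpin1+/+ counts) were used to check which list is Lpin1+/+.

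Log2(RPKM + 1) of genes with a mean of at least 0.5 was fitted with limma 3.58.1 (R 4.3.3, trend in the variance), with Benjamini-Hochberg adjustment over all 11507 genes. The study's DESeq test on gene counts was not run, since RPKM is not a count. Exon counts, with 0.5 added to each, were fitted over events with at least 10 reads in every library: 6 libraries for genotype, and 12 for feeding, over 28444 events shared by both tables. Precision rests on 3 mice in each group, and a member's SD within a group had a median of 0.214 to 0.320 on the log2 scale. Both fits were first run on simulated data, whose outcome is not used as support here. The exon simulation placed changes only in well-covered events in which neither form was rare, unlike most called events of the members. The members and lists were chosen with earlier results of these data known. All members are named but 1, which is not reported here, and the 12 with the largest called change are given in full. The gene fit was repeated with 0.1 in place of 1 as pseudocount, without the filter, with a minimum of 5 RPKM, with rescaled libraries, with the replicate number as a block, on only the 6 libraries of a contrast, and without each library in turn. The exon fit was repeated with a minimum of 20 reads, with 1 added to each count, with precision weights, and without each library. Positions are from GENCODE M21, promoter windows from RefSeq (GRCm38.p6). Tables and figures were made in Python 3.11.15 (pandas 2.3.3, numpy 2.4.6, matplotlib 3.10.9).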

Additional observations from a re-analysis of the deposited data

Results flagged for a closer look

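The feeding response of Slc25a33 differed between genotypes by -3.28 on the log2 scale (95% confidence interval -4.27 to -2.29), by the interaction term of the limma fit with Benjamini-Hochberg adjustment (adjusted p = 0.00758). It passed in every alternative of this contrast, where it was between -3.51 and -2.95. RPKM fell on refeeding from 275 to 366 to 22.6 to 37.3 in Lpin1-/- liver, and the fasted and refed ranges of Lpin1+/+ liver overlapped.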

How the results depend on the processing

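The number of members past the threshold for refeeding in Lpin1+/+ liver (1) was 0 without the filter, with rescaled libraries and on only the 6 libraries compared, 2 with a minimum of 5 RPKM, and 0 to 2 without 1 library. For refeeding in Lpin1-/- liver (10) it was 6 with rescaled libraries and 4 to 12 without 1 library, for genotype in fasted liver (15) 9 to 17 without 1 library, for genotype in refed liver (7) 0 to 9 without 1 library, and for the interaction (1) 1 to 2 without 1 library. Other settings moved these counts by less than 1.5 times, apart from the block. With the replicate number as a block the counts were 1, 9, 14, 3 and 1 in the same order. The numbers do not show a pairing: of 18 pairs of libraries with the same number, 8 had deviations with a correlation over 0.1 (lowest -0.474, highest 0.743), and 4 of 12 libraries were most like a library of their own number. Called exon events for genotype in fasted liver (43) were 74 with 1 added to each count, 22 with precision weights, and 15 to 45 without 1 library. In refed liver (2) they were 4 with a minimum of 20 reads, 6 with 1 added, 8 with weights and 0 to 0 without 1 library, and for refeeding in Lpin1-/- liver (11) 24 with weights and 4 to 14 without 1 library. No paired analysis was possible because the exon tables carry no replicate numbers. Rescaling moved the share of higher among all called genes from 85.9% to 68.9% for refeeding in Lpin1-/- liver and from 88.4% to 63.3% in Lpin1+/+ liver. Over the single genes and exons named, 855 values under an alternative stayed on their side of the threshold, 167 lost it, 21 passed it newly, and none changed direction. The causes were not tested. Without the reads of each gene, the sampling error of a low RPKM is not known here, and low members such as Slc25a35 are the least certain.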

Other observations

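Slc25a18, a glutamate carrier that was under the minimum of 0.5 RPKM and so is no member, had 0.505, 0.498 and 0.154 RPKM in the 3 fasted Lpin1-/- libraries and at most 0.0906 in the other 9.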
